A study of Mus musculus with 6 samples.

Results

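The comparison described here was day 4 of neural differentiation against day 0 in mouse embryonic stem (ES) cells carrying an shRNA against Mbd3. It rested on 2 of the 6 arrays of the series, 1 at each day, and on the 23521 of 34351 probe sets (the groups of oligonucleotides that read 1 transcript) annotated with a single gene symbol. These probe sets stood for 22180 genes. All 6 arrays came from ES cells infected with a lentivirus that delivered an shRNA: a control shRNA, an shRNA against Chd4 or an shRNA against Mbd3, so that the control cells carried a virus and an shRNA too; these are called the control, Chd4 and Mbd3 lines or knockdowns. At day 0 the cells had been grown on gelatin with serum and LIF, the cytokine that holds mouse ES cells in self-renewal. At day 4 they had been re-aggregated in wells with low adhesion and kept in a differentiation medium with KSR, a serum replacement. The day therefore differed from day 0 in cytokine, medium, serum and culture form together, and these cannot be told apart. The labels name no cell clone, no animal and no second shRNA against Mbd3.

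Mbd3 is a subunit of the nucleosome remodelling and deacetylase complex (NuRD), which joins a chromatin remodelling ATPase such as Chd4 to histone deacetylases. Mbd3 holds the complex together in ES cells, and NuRD is known there for damping pluripotency genes so that cells can leave self-renewal. Neural differentiation of ES cells passes from the naive state, supported by LIF and STAT3, through a primed state like the epiblast of the early embryo, to neural progenitors marked by Sox1 and later to neurons.

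Mbd3 itself checked the label. Its probe set read 216 in the control line, 204 in the Chd4 line and 92.8 in Mbd3-knockdown cells at day 0, and 183, 204 and 138 at day 4. In the arrays labelled Mbd3 knockdown it thus stood at 43.0% of control at day 0 and at 75.5% at day 4, so the knockdown was partial and the 2 days differed in its depth. In these cells the day 4 signal of Mbd3 was 1.49-fold that of day 0 (log2 difference 0.58), while it was 1.18-fold lower at day 4 in the control line. Chd4 read 896 at day 0 and 942 at day 4 in the Mbd3-knockdown cells. Of the 16 NuRD genes measured, 0 differed by 2-fold between the days in this line and their median log2 difference was 0.06; Chd3, an alternative remodelling ATPase, was the largest at 0.66 (118 at day 0 and 187 at day 4).

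Each group was 1 array, so no difference below has a replicate check and no test was possible. Values are the deposited intensities, whose array medians lay between 39.6 and 41.4; differences are log2 of day 4 minus log2 of day 0. A gene was compared where the brighter of its 2 values reached the median of its array, which left 13348 genes. The only spread that the 2 arrays themselves give is that between probe sets of the same gene: over 654 pairs of probe sets in 510 genes the gap between their log2 differences had an SD of 0.285, and 95% of gaps were under 0.605 in size. Of 21 pairs whose main probe set was past 2-fold, 20 had the other probe set on the same side but 2 had it past 2-fold too, so a count past 2-fold depends on the probe set read. That gap covers probe behaviour and not the spread between cultures. Where the dimmer value of a gene past 2-fold lay under 41.4, the highest array median, the fold against that floor is given as a lower bound. In bulk RNA of this kind, fewer cells of a type and less RNA per cell cannot be told apart.

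Of the 13348 genes compared, 213 were at least 2-fold higher at day 4 (1.6% of genes compared) and 147 at least 2-fold lower (1.1%), together 2.7%. Whether the deposited values carry an additive offset is not stated; with 16 subtracted, a value just under the lowest intensities, the counts were 381 and 259. Of the 213 higher genes 198, and of the 147 lower genes 142, were protein-coding, against 12410 of the 13348 genes compared. Of the 213 higher genes 7 were miRNA genes, against 173 of the 13348. The median log2 difference over all genes compared was -0.03, and the central 95% of genes lay between -0.77 and 0.85. The differences ranged from -3.26 for Txnip to 3.30 for Greb1l. The same rule called 1125 genes higher (8.13%) and 650 lower (4.7%), together 12.8%, over the same 4 days in the control line. In the Chd4 line it called 228 higher (1.7%) and 155 lower (1.16%), together 2.86%. The median size of a log2 difference was 0.19 in the Mbd3 knockdown, 0.34 in the control and 0.20 in the Chd4 knockdown. Near the threshold, the genes just inside were Gulp1 at 1.001 and Amt at -1.004, and those just outside were Olfr307 at 0.998 and Slc35f2 at -0.998.

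**Figure D1:**
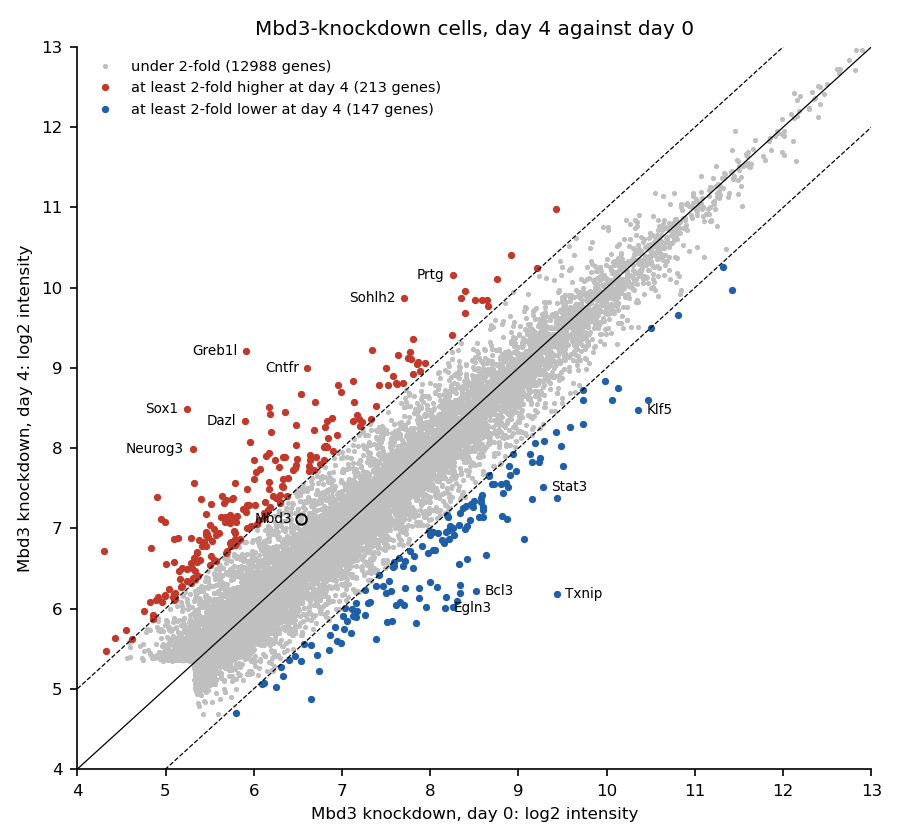
Log2 intensity at day 4 (vertical axis) against log2 intensity at day 0 (horizontal axis) in Mbd3-knockdown cells, 1 point per gene compared; dashed lines mark 2-fold differences. The 213 higher genes are led by Greb1l and Sox1, the 147 lower genes by Txnip, and the open circle marks Mbd3, which lies inside the 2-fold lines.

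Greb1l and the neural gene Sox1 led the higher end. Greb1l, a gene related to the oestrogen-response gene Greb1, read 60.1 at day 0 and 592 at day 4 in the Mbd3 knockdown, a 9.84-fold difference. It read 45.0 and 732 in the control line, and reached 361 in the Chd4 line (log2 difference 2.85), so it was higher at day 4 in all 3 lines. Sox1, the transcription factor that marks the first neural progenitors, read 37.9 at day 0 and 360 at day 4 in the Mbd3 knockdown, at least 8.68-fold higher. Sox1 read 46.5 and 1033 in the control line and 36.4 and 159 in the Chd4 line, so its day 4 value in the Mbd3 knockdown lay between the other two. Sox4, a SOX factor of neural and other progenitors, read 72.3 and 365 (log2 difference 2.34), against 118 and 748 in the control line. The 2 probe sets of Sox4 differed in size, at 1.25 and 2.34. Meis2, a homeobox cofactor of early neural patterning, read 39.9 and 190, at least 4.59-fold higher, and 53.9 and 1145 in the control line.

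Of the 41 early neural progenitor genes measured, 30 were bright enough to be compared in the Mbd3 knockdown, 14 were past 2-fold on the higher side at day 4 and 0 on the lower. The median log2 difference over all 41 was 0.53, or 0.36 with dim values set to the floor, against -0.01 over all 22180 genes. In the control line 31 of the 41 were at least 2-fold higher and the median was 2.35; in the Chd4 line 4 were, with a median of 0.12. Fabp7, which binds fatty acids in radial glia, read 30.8 at day 0 and 139 at day 4 in the Mbd3 knockdown, at least 3.34-fold higher, but 29.3 and 1219 in the control line. Ptn, the growth factor pleiotrophin, read 30.0 and 167, at least 4.04-fold higher, and 35.3 and 676 in the control line. For both genes the day 4 value of the Mbd3 knockdown was a small part of that of control. Lrrn1, a leucine-rich membrane protein of the neural plate, read 55.2 and 190. The other members past 2-fold with both values above the floor were the N-cadherin gene Cdh2 (log2 difference 1.37), the WNT antagonist gene Sfrp1 (1.27), the RNA-binding protein gene Msi1 (1.21) and the adhesion gene Ncam1 (1.18). Those dim at day 0 were at least 2.30-fold (Ndnf), 2.29-fold (Meis1), 2.18-fold (Sox9), 2.04-fold (Ednrb) and 1.99-fold (Pax3) higher, so Pax3 was not past 2-fold against the floor.

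Other progenitor genes of the list, named after their values were seen because they are standard markers, stood near their day 0 level in the Mbd3 knockdown. Pax6, a master regulator of neurectoderm, read 67.2 at day 0 and 62.5 at day 4, against 93.8 and 382 in the control line. Nes, which encodes the intermediate filament nestin, read 73.0 and 87.5, against 71.6 and 409. Hes5, a Notch target of neural stem cells, read 40.9 and 38.2, both under the floor, against 42.4 and 314 in the control line. In the Chd4 line the day 4 values of Pax6, Nes and Hes5 were 63.5, 84.7 and 37.3. The knockdowns thus read alike at day 4 for these 3 genes, while for Sox1 the Mbd3 knockdown read higher than the Chd4 knockdown.

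**Figure D2:**
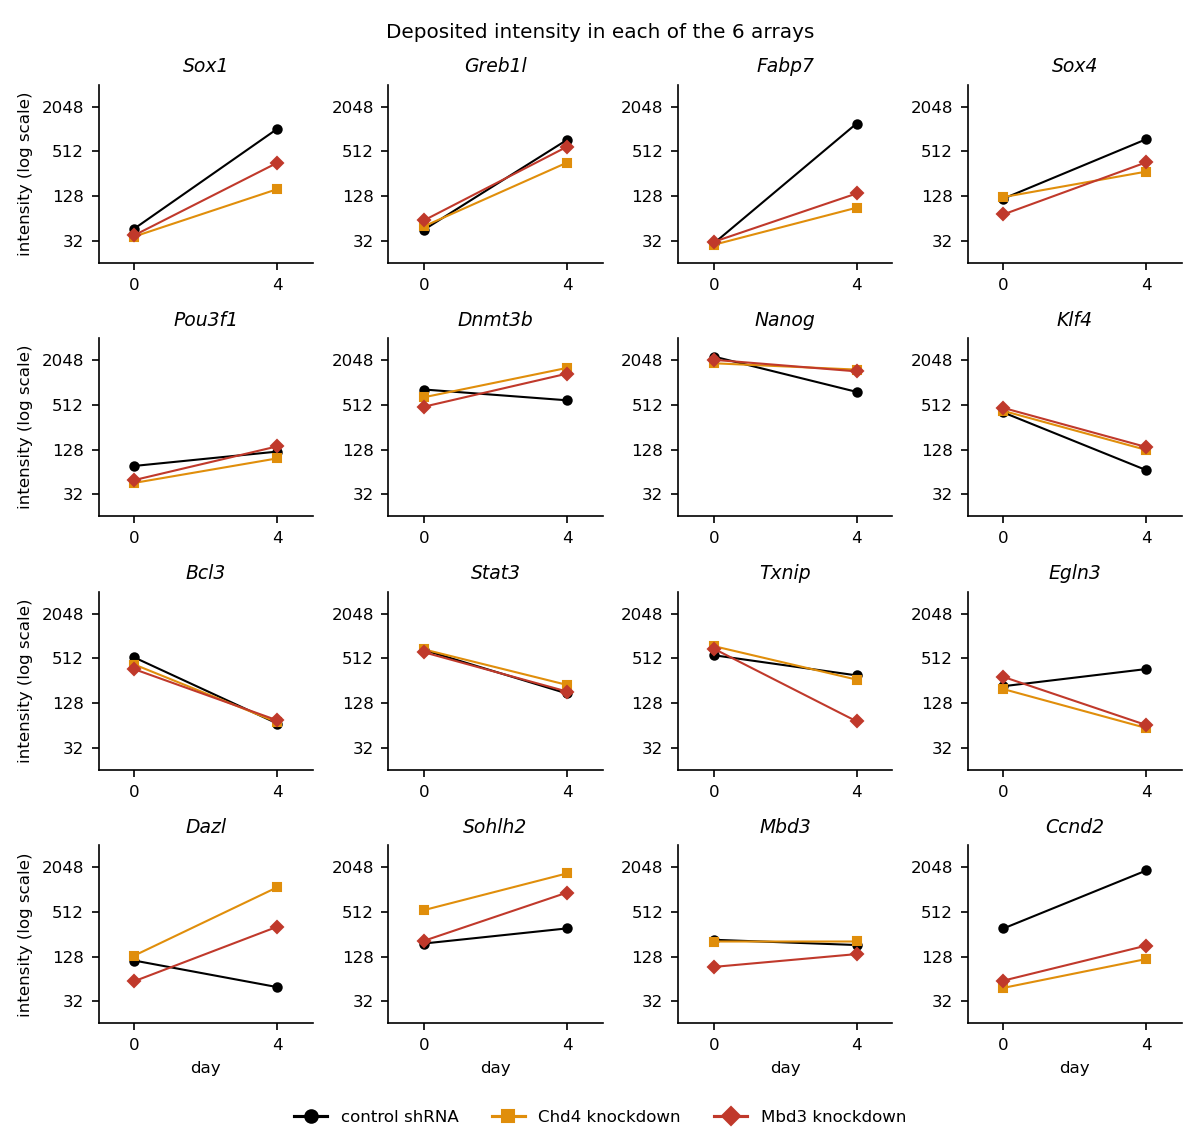
Deposited intensity (log scale) at day 0 and day 4 of 16 genes; each point is 1 array, and lines join the 2 arrays of a line (black circles, control shRNA; orange squares, Chd4 knockdown; red diamonds, Mbd3 knockdown). Sox1 reaches 1033 in control, 360 in Mbd3-knockdown and 159 in the Chd4 line at day 4, while Dazl is lower at day 4 in the control line, 49.5 against 113, and higher in both knockdowns.

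The list of later neuron genes was read beside the 1.6% of all genes compared that were at least 2-fold higher. In the Mbd3 knockdown 1 member past 2-fold is too few to set the list apart from that share. Of 31 postmitotic neuron genes measured, 20 were compared and 1, Crmp1, was at least 2-fold higher at day 4, with 0 lower; 21 of the 31 were at least 2-fold higher in the control line and 0 in the Chd4 line. The median was 0.17 in the Mbd3 knockdown and 0 with dim values at the floor, against 1.30 in the control line and -0.07 in the Chd4 line. Crmp1, a cytoplasmic protein of growing axons, read 337 at day 0 and 991 at day 4 in the Mbd3 knockdown, 666 and 1130 in the control line and 514 and 899 in the Chd4 line. It was thus present in all arrays, and lowest in the Mbd3 knockdown at day 0. Ebf2 read 34.2 and 59.0, at least 1.42-fold higher, and the lowest was Stmn2, a microtubule regulator of neurons, at -0.56 (761 and 518). The helix-loop-helix factor gene Neurog3, which is outside the list, read 39.6 at day 0 and 254 at day 4, at least 6.13-fold higher. Its day 4 value was 183 in the control line and 129 in the Chd4 line. Of its relatives in the list, Neurog2 had a log2 difference of 0.05 and Neurog1, too dim to be compared, -0.08. Cntfr, the receptor subunit for ciliary neurotrophic factor, read 97.5 and 510, against 169 and 1130 in the control line. Tox3, a nuclear HMG-box protein, read 73.5 and 293, a 3.99-fold difference, against 62.2 and 1061 in the control line.

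Among signals that pattern the neural plate, the retinoic acid list had the most members past 2-fold on the higher side. Retinoic acid is made from vitamin A, carried by binding proteins and read by nuclear receptors, and it sets posterior identity in neural tissue. Of 20 retinoic acid genes measured, 5 were past 2-fold on the higher side at day 4 and 0 on the lower, with a median of 0.27, or 0.53 over the 15 members compared, against 0.74 in the control line (9 higher) and 0.08 in the Chd4 line (1 higher). Stra6, the membrane receptor that takes up retinol, read 65.7 at day 0 and 133 at day 4 (log2 difference 1.02), and Dhrs3, which turns retinal back to retinol, read 36.2 and 77.3, at least 1.87-fold higher. The binding protein Crabp1 read 72.2 and 245, and its relative Crabp2 read 114 and 259. In the control line the day 4 values of Crabp1 and Crabp2 were 1330 and 1905, several times those of the Mbd3 knockdown, whereas in the Chd4 line Crabp1 read 144 and 129. Hoxb1, a Hox gene with a retinoic acid response in the hindbrain, read 45.9 and 158, against 53.9 and 530 in the control line. Hoxb1 was the 1 of 21 Hox genes measured that was past 2-fold; the list median was -0.01. Hoxa2 read 27.7, under the floor, and 53.6, at least 1.29-fold higher, against 31.8 and 394 in the control line.

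Notch, which holds progenitors back from becoming neurons through ligands of the Delta and Jagged families and targets of the Hes family, had 0 of 20 measured genes past 2-fold either way in the Mbd3 knockdown. Its median was 0.22, against 1.07 with 11 genes higher in the control line and 0.01 in the Chd4 line. The ligand Dll1 read 47.0 at day 0 and 84.3 at day 4 in the Mbd3 knockdown and 61.2 and 277 in the control line. The ligand Jag2 was the lowest of the list at -0.99 (171 and 86.2). Among 23 WNT genes, 2 secreted antagonists were past 2-fold and 0 were lower: Sfrp1, with 184 and 443, and Sfrp2, with 232 and 540. The WNT median was 0.03. Sfrp1 was on the lower side in the Chd4 line, with 434 and 227, and higher in the control line, with 383 and 2744.

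FGF signalling acts through receptor tyrosine kinases and ERK, which switch on immediate early and ETS genes. Of 26 FGF and ERK genes, 3 were past 2-fold on the higher side and 2 on the lower, and the list had a median of -0.02. The ligand Fgf15 read 64.3 at day 0 and 230 at day 4, Fgf5 read 53.3 and 114, and the ETS factor Etv1 read 161 and 328. The immediate early factor Egr1 read 229 and 56.3, a 4.07-fold difference, and the ETS factor Etv4 read 140 and 60.2. Among the members past 2-fold, the ligands Fgf15 and Fgf5 were thus higher and Egr1 lower, with an ETS gene on each side. The other ligands of the list, Fgf4, Fgf17 and Fgf8, had log2 differences of -0.08, -0.04 and 0.40. Egr1 was also lower at day 4 in the control line (308 and 50.5) and in the Chd4 line (199 and 85.6). Fgf18, outside the list and named after its value was seen, read 89.3 and 264 in the Mbd3 knockdown, against 139 and 143 in the control line.

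In the Nodal and Lefty list, 2 of 12 genes were at least 2-fold lower and 0 higher. They were Tdgf1, the Nodal co-receptor also called Cripto (2547 at day 0 and 1229 at day 4), and the inhibitory SMAD Smad7 (407 and 201). The list median was 0.08, against -1.07 in the control line. The Nodal antagonist Lefty1 read 240 and 446 in the Mbd3 knockdown but 267 and 114 in the control line. In the BMP and ID list of 22 genes, 2 were higher and 2 lower, with a median of 0.10. Fst, the secreted antagonist follistatin, read 42.2 and 164, and the receptor Bmpr2 read 325 and 933. The ligand Bmp4 read 481 and 203, and the fourth was Smad7. Bmp4 was lower at day 4 in the control line by more, from 1072 to 95.7.

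Over all measured members, the primed epiblast list had the largest median of the 40 gene lists in the Mbd3 knockdown; over the members compared, early neural progenitor genes were ahead, at 0.93. Of 24 genes, all compared, 10 were past 2-fold on the higher side at day 4 and 1 on the lower. By any amount, 22 were higher, against 48.0% of all 22180 genes, and the median was 0.83. The median was 0.64 in the control line and 0.63 in the Chd4 line, but the members differed. In the control line 8 were past 2-fold on the higher side and 4 on the lower, and of those 8 only Sox4, Fgf15 and Fzd2 were past 2-fold in the Mbd3 line. Pou3f1, a POU factor between epiblast and neural plate, read 49.6 at day 0 and 141 at day 4, against 76.9 and 120 in the control line. Wnt8a, a WNT ligand of the epiblast, read 81.6 and 237, against 64.6 and 80.7. The kinase gene Pim2 read 224 and 660, and the zinc finger factor Zic2 read 112 and 260. The WNT receptor Fzd2 read 31.9 and 136, at least 3.28-fold higher. Sox4, Fgf15 and Fgf5, given above, were the other members past 2-fold beside both Dnmt3 genes. Trh, the thyrotropin-releasing hormone precursor, was the lower one, with 2737 and 1001; it was lower in control (2237 and 940) and Chd4-knockdown cells (1671 and 780) too. Otx2, a homeobox factor of primed cells and forebrain that was named after its value was seen, read 92.7 and 93.8.

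The enzymes that set new DNA methylation, Dnmt3a and Dnmt3b, are characteristic of primed cells. Dnmt3b read 485 at day 0 and 1353 at day 4 in the Mbd3 knockdown, 650 and 1618 in the Chd4 knockdown, and 827 and 591 in the control line. Dnmt3a read 108 and 224 in the Mbd3 knockdown, 139 and 342 in the Chd4 knockdown, and 156 and 161 in the control line. Both genes were therefore more than 2-fold higher at day 4 in either knockdown, while neither was in the control line. At day 0 both were lower in the Mbd3 knockdown than in control. They were the 2 of 12 DNA methylation genes past 2-fold, with 0 lower and a median of 0.13; Tet1, an enzyme that oxidises 5-methylcytosine, was the lowest at -0.87 (1834 and 1006).

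Of 25 genes of the naive state measured, 9 were at least 2-fold lower at day 4 and 1 higher, and the median was -0.87. By any amount, 23 were lower, against 51.9% of all 22180 genes. In the control line 22 of 25 were at least 2-fold lower with a median of -1.87, and in the Chd4 line 10 with a median of -0.63. Tfcp2l1, a transcription factor of the naive network, read 1414 at day 0 and 388 at day 4 in the Mbd3 knockdown, 904 and 85.7 in the control line and 1312 and 323 in the Chd4 line. Klf5, a Krüppel-like factor, read 1313 and 356, against 1313 and 175 in the control line. Tcl1, a co-activator of AKT kinase, read 537 and 117, against 606 and 65.7. In all 3 of these the day 4 value of the Mbd3 knockdown stayed above that of control. Jam2, an adhesion molecule, differed in that its day 4 value was lowest in the Mbd3 knockdown (725 and 219, against 1032 and 578 in the control line). The others past 2-fold were Klf4 (log2 difference -1.75), the lysosomal protein gene Laptm5 (-1.40), the nuclear receptor Nr0b1 (-1.37), the small GTPase Mras (-1.27) and Prdm14 (-1.03). The 1 higher member was Stra8, a gene of meiotic entry that is not itself a regulator of the naive state.

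Some naive genes hardly differed between the days in the Mbd3 knockdown; these were named after their values were seen. Klf2 read 542 at day 0 and 537 at day 4, against 761 and 210 in the control line and 1249 and 623 in the Chd4 line. Zfp42, also called Rex1, read 1745 and 1340, against 2050 and 330 in the control line. Fgf4 read 223 and 211, against 436 and 119. For Klf2 and Fgf4 the Mbd3 knockdown was below control at day 0 and above it at day 4. Esrrb, a nuclear receptor of the naive network, differed more than these in the Mbd3 knockdown. It read 183 and 97.8, a log2 difference of -0.90, and so was under 2-fold.

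**Figure D3:**
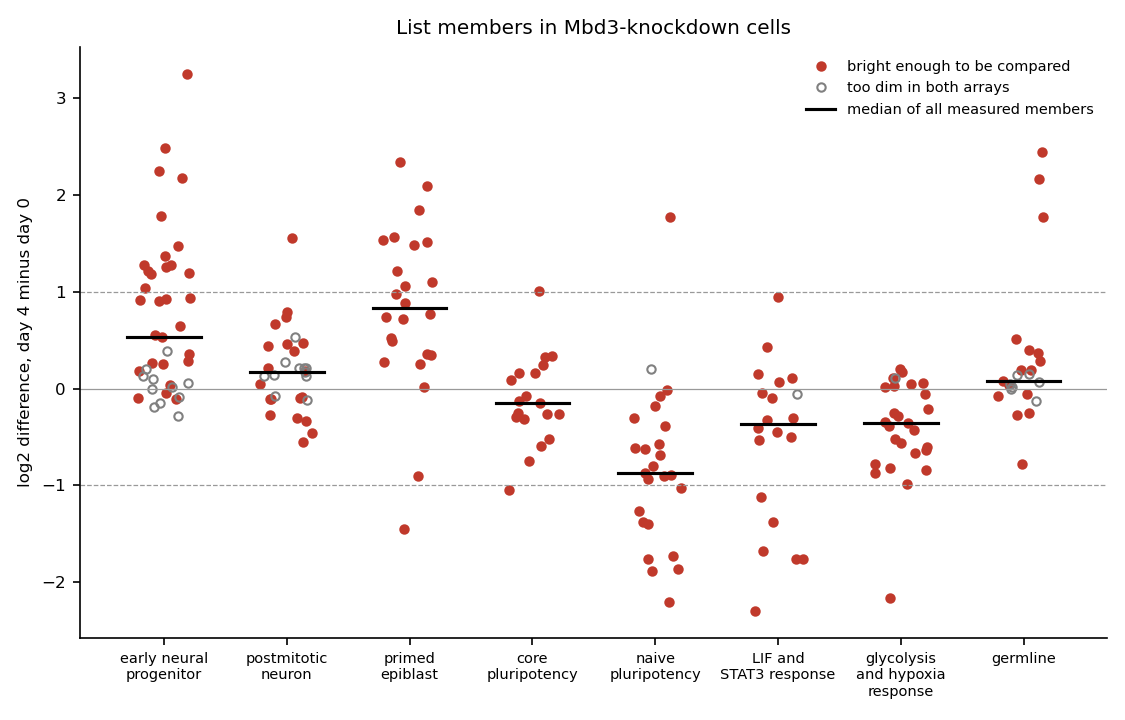
Log2 difference, day 4 minus day 0, in Mbd3-knockdown cells for every measured member of 8 gene lists (filled red, bright enough to be compared; open grey, too dim in both arrays); the bar is the median of all measured members and dashed lines mark 2-fold. The primed epiblast median is 0.83 and the naive median -0.87, while the core pluripotency median is -0.15.

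LIF binds the receptor pair Lifr and Il6st, JAK kinases then phosphorylate Stat3, and Stat3 switches on Socs3, Klf4 and Bcl3, among others. Of 20 LIF and STAT3 genes measured, 6 were at least 2-fold lower at day 4 and 0 higher; the median was -0.37, against -0.78 in the control line (9 lower) and -0.44 in the Chd4 line (4 lower). Bcl3, a nuclear IκB protein, read 366 at day 0 and 74.8 at day 4 in the Mbd3 knockdown, 528 and 67.8 in the control line, and 424 and 70.4 in the Chd4 line. Stat3 read 620 and 183, 665 and 172, and 678 and 225 in the same order. The receptor gene Lifr read 608 and 234 in the Mbd3 knockdown, 486 and 179 in the control line, and 469 and 273 in the Chd4 line. For these 3 genes the day 4 values of the 3 lines lay close together, unlike the neural genes. Socs3, the feedback inhibitor of the pathway, read 183 and 57.2 in the Mbd3 knockdown and 179 and 79.2 in the control line. Klf4 read 466 and 138, against 405 and 67.5 in the control line, and the kinase gene Sgk1 read 210 and 96.3, against 348 and 68.9. Il6st, the shared receptor subunit, read 587 and 632. Gbx2, a homeobox target of STAT3, was the highest of the list at 0.94 (100 and 193), and was higher in the Chd4 line too (85.3 and 205) but lower in the control line (189 and 125).

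The promoters of the 6 lower members were searched for the letters TTCNNNGAA, the core of a STAT binding site, on both strands of the 250 bases before each RefSeq start (GRCm38.p6). The letters were in 2 of the 12 windows of these 6 genes (16.7%), in 6 of 26 windows of all matched list members (23.1%) and in 8.30% of 32851 windows over all genes. The 2 windows belong to Socs3 and Sgk1; those of Bcl3, Stat3, Klf4 and Lifr held no match. The Socs3 window is shown because Socs3 is the textbook STAT3 target; it lies on the minus strand at chr11:117969367-117969616, directly before the gene, and the capitals mark the match, which begins 154 bases before the start. A match is a description of the letters and not evidence of binding.
Socs3: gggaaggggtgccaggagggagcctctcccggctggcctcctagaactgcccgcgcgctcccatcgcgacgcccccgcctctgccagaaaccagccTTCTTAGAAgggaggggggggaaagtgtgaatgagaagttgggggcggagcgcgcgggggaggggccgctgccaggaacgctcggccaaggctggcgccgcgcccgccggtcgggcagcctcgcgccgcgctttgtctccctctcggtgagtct

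As a list, the core pluripotency genes, shared by naive and primed cells, differed less between the days in the Mbd3 knockdown than in the control line. Over all genes compared in the Mbd3 knockdown, 2.7% were past 2-fold either way. Of 19 measured, 1 was past 2-fold on the higher side and 1 on the lower, and the median was -0.15; in the control line 11 were at least 2-fold lower and the median was -1.38, and in the Chd4 line 0 were and the median was 0.06. Nanog read 2082 at day 0 and 1454 at day 4 in the Mbd3 knockdown, 2305 and 768 in the control line and 1869 and 1534 in the Chd4 line. Pou5f1, which encodes Oct4, read 176 and 141, against 192 and 77.6 in the control line. Sox2, which pluripotent and neural cells share, read 1578 and 1316, against 1459 and 1416. These 3 were named as defining markers after their values were seen; Nanog and Pou5f1 were thus nearer their day 0 level in both knockdowns than in the control line. The members past 2-fold were Tdgf1, given above, and Lin28b, an RNA-binding protein that blocks let-7 processing, with 51.3 and 103.

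The germ cell genes Dazl and Sohlh2 were among the 15 highest of the comparison. Dazl, which binds mRNAs in germ cells, read 59.6 at day 0 and 324 at day 4 in the Mbd3 knockdown, 132 and 1104 in the Chd4 knockdown, and 113 and 49.5 in the control line. Sohlh2, a helix-loop-helix factor of early germ cells, read 209 and 934 in the Mbd3 knockdown, 543 and 1697 in the Chd4 knockdown, and 192 and 307 in the control line. Stra8 read 34.2 and 117, at least 2.82-fold higher, in the Mbd3 knockdown, 57.8 and 211 in the Chd4 knockdown, and 33.6 and 39.9 in the control line. These 3 were the germline genes past 2-fold of 23 measured, with 0 lower; the list median was 0.08, so most members did not show such differences. In the Chd4 line 6 were higher and the median was 0.53, and in the control line 1 was higher, 4 were lower and the median was -0.47. The meiotic genes Smc1b (44.2 and 122) and Rec114 (42.6 and 110), outside the list and named after their values were seen, had the same order: their day 4 values were 327 and 139 in the Chd4 knockdown and 75.3 and 44.4 in the control line.

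Txnip, Arrdc4 and Egln3, which respond to glucose or oxygen, were among the 15 lowest genes. Txnip, which binds thioredoxin and limits glucose uptake, read 694 at day 0 and 72.5 at day 4 in the Mbd3 knockdown, a 9.57-fold difference and the largest decrease of the comparison. It read 566 and 302 in the control line and 751 and 265 in the Chd4 line. Its relative Arrdc4, an arrestin-domain protein that responds to glucose through the same transcription factors, read 323 and 73.4 in the Mbd3 knockdown, 237 and 126 in the control line and 230 and 113 in the Chd4 line. Both genes were thus lower at day 4 in all 3 lines and lowest in the Mbd3 knockdown. They and the iron exporter gene Slc40a1 (171 and 85.3) were the 3 of 19 metallothionein, oxidative and iron genes at least 2-fold lower, with 0 higher and a median of -0.20.

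Egln3, a prolyl hydroxylase that marks hypoxia-inducible factors for decay and is itself induced by them, read 289 at day 0 and 64.6 at day 4 in the Mbd3 knockdown and 198 and 58.9 in the Chd4 knockdown, but 216 and 368 in the control line. Ndufa4l2, a mitochondrial protein induced in hypoxia, read 92.8 and 40.8 in the Mbd3 knockdown, at least 2.24-fold lower, 139 and 42.6 in the Chd4 knockdown, and 69.0 and 187 in the control line. Bhlhe40, a helix-loop-helix repressor that also responds to hypoxia, read 446 and 187, 550 and 143, and 472 and 578 in the same order. For these 3 genes day 4 was lower in both knockdowns and higher in the control line. Of 27 glycolysis and hypoxia genes measured, Egln3 alone was at least 2-fold lower and 0 were higher. By any amount, 19 were lower, against 51.9% of all 22180 genes. The median was -0.36 in the Mbd3 knockdown and -0.54 in the Chd4 knockdown (5 lower), against 0.49 in the control line (6 higher, 1 lower). Bnip3, a mitochondrial autophagy receptor, read 160 and 81.1 in the Mbd3 knockdown and 146 and 341 in the control line. The glucose transporter gene Slc2a3 read 2611 and 1425, and the glycolytic genes Aldoc, Tpi1 and Ldha had log2 differences of -0.85, -0.82 and -0.66; all 4 were named after their values were seen.

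The hypoxia response core ACGTG, searched on both strands, was in 22 of 35 promoter windows of the measured members of this list (62.9%) against 19.6% of all 32851 windows; the list was chosen for known hypoxia and glycolysis genes. The window of Egln3 is shown because Egln3 was the member past 2-fold. It lies on the minus strand at chr12:54203875-54204124, directly before the gene, and its match, in capitals, begins 229 bases before the start.
Egln3: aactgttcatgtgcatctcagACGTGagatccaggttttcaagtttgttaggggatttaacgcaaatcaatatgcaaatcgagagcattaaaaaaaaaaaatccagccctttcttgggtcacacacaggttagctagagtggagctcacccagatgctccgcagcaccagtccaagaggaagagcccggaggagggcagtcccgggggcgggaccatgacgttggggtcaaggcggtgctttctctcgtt

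Of 478 miRNA genes measured, 173 were compared, and the median over those compared was 0.09. Of the 173, 7 were past 2-fold on the higher side and 0 on the lower, against 1.6% and 1.1% of all genes compared. Probe sets of miRNA genes read the transcript around the hairpin and not the mature miRNA. Of the 7, 3 lie in the Mir106a-363 cluster on the minus strand of chromosome X, a paralog of the Mir17-92 cluster of chromosome 14; this cluster was singled out after its values were seen. Mir18b read 67.2 at day 0 and 213 at day 4 in the Mbd3 knockdown, 41.6 and 113 in the control line, and 45.7 and 132 in the Chd4 line. Mir363 read 64.4 and 195, 58.8 and 94.0, and 43.5 and 113 in the same order. Mir19b-2, dim at day 0, was at least 1.28-fold higher in the Mbd3 knockdown. All 3 were higher at day 4 in every line. Their neighbours Mir92-2 and Mir20b had log2 differences of 0.84 and 0.41, and the chromosome 14 relatives Mir17, Mir18, Mir19a and Mir20a had 0.07, 0.42, 0.29 and 0.09. The clusters were not fully apart, since Mir20b and Mir18 read nearly alike. Mature sequences of the measured X-linked members (RefSeq, GRCm38.p6) are shown with the seed, bases 2 to 8, in capitals. Mir106a was not measured. The clusters share seeds: miR-92a-3p, which both encode, and the X-linked miR-363-3p share AUUGCAC.
mmu-miR-18b-5p: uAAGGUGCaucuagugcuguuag
mmu-miR-20b-5p: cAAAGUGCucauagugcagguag
mmu-miR-19b-3p: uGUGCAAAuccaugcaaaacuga
mmu-miR-92a-3p: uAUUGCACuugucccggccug
mmu-miR-363-3p: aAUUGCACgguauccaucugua

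The other 4 higher miRNA genes were Mir130a (log2 difference 1.23), Mir670 (1.21), Mir466b-2 (1.15) and Mir15a (1.02). Mir466b-2 belongs to a family of near-identical copies and its value is uncertain for that reason. Against the floor, Mir130a was at least 1.71-fold and Mir670 at least 1.66-fold higher, and so under 2-fold there.

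The series title names p53, a transcription factor that arrests the cycle or starts apoptosis after stress. Of 37 p53 target genes measured, 4 were at least 2-fold lower at day 4 and 1 higher. By any amount, 27 were lower, against 51.9% of all 22180 genes, and the median was -0.18. The median was -0.46 in the control line (7 lower) and 0.07 in the Chd4 line (0 past 2-fold). The kinase gene Plk2 read 626 at day 0 and 271 at day 4, the phosphatase gene Ptprv read 144 and 62.7, the membrane protein gene Perp read 417 and 188, and Tigar, a phosphatase that restrains glycolysis, read 241 and 109. Plk2, Perp and Tigar were lower in the control line too, which read 455 and 160, 275 and 52.5, and 299 and 106. The higher one was Cd80, a ligand of T cell co-receptors, with 103 and 299 in the Mbd3 knockdown, 262 and 329 in the Chd4 knockdown and 109 and 34.5 in the control line. The standard p53 targets Cdkn1a (612 and 557) and Mdm2 (1156 and 804), named after their values were seen, were under 2-fold. Of 26 apoptosis genes measured, 0 were past 2-fold, and the median was -0.01.

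The 26 cyclin, CDK and inhibitor genes held 2 that were at least 2-fold higher and 0 were lower; the list had a median of -0.13. Ccnd2, a D-type cyclin, read 60.6 at day 0 and 180 at day 4 in the Mbd3 knockdown, 48.4 and 119 in the Chd4 knockdown, and 306 and 1858 in the control line. The Mbd3 knockdown thus stood at 19.8% of control at day 0 and at 9.69% at day 4 for Ccnd2, although the gene was higher at day 4 in each line. Cdkn1c, an imprinted CDK inhibitor, read 60.0 and 148. Of 32 DNA replication and mitosis genes, 0 were past 2-fold, with a median of -0.08.

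Imprinted genes are expressed from 1 parental copy. Of 20 measured, 3 were past 2-fold on the higher side and 0 on the lower, 18 were higher by any amount, against 48.0% of all 22180 genes, and the median was 0.29 (0.60 in control and 0.17 in the Chd4 line). Igf2, a growth factor, read 162 at day 0 and 596 at day 4 in the Mbd3 knockdown, 174 and 269 in the control line and 147 and 206 in the Chd4 line. Grb10, an inhibitor of insulin and IGF receptors, read 221 and 554, against 260 and 1642 in the control line. Igf2 was thus highest at day 4 in the Mbd3 knockdown and Grb10 in the control line; the other member was Cdkn1c. Xist, the RNA of X inactivation, which is outside the list and was named after its value was seen, read 50.5 and 159, against 32.8 and 43.5 in the control line.

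Of 19 cholesterol synthesis genes, 1, Fdft1, was at least 2-fold higher and 0 lower at that threshold; 15 were higher by any amount, against 48.0% of all genes, and the median was 0.44. Fdft1, the first enzyme committed to sterols, read 400 at day 0 and 922 at day 4, and Cyp51, a sterol demethylase, read 94.3 and 188 and lay just under the threshold. The median was 0.80 in the control line (6 higher) and 0.25 in the Chd4 line. Of 19 fatty acid genes, 16 were higher by any amount, against the same 48.0%, and the median was 0.17. At least 2-fold, 1 was higher, the desaturase gene Fads2 (336 and 822), and 1 lower, the phosphatidate phosphatase gene Lpin1 (263 and 106).

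The counts of junction, matrix and serum-response genes stand beside 2.7% of all genes compared that were past 2-fold either way. Of 24 cadherin, EMT and junction genes 2 were higher, Cdh2 (171 at day 0 and 440 at day 4) and Cdh6 (53.7 and 110), and 1 was lower, Vim; the median was 0.15. The 2 probe sets of Vim were at -1.14 and -0.85, so 1 of them was past 2-fold. Vim, the intermediate filament vimentin, read 1008 and 458 in the Mbd3 knockdown, 1078 and 650 in the Chd4 knockdown, and 1450 and 2186 in the control line. Of 31 matrix and integrin genes, the integrin gene Itga1 (177 and 77.5) was lower and 0 were higher, with a median of 0.04. Of 26 serum-response and YAP target genes, 3 were lower and 0 higher, with a median of -0.34: Egr1, the matricellular gene Ccn1 (285 and 113) and the annexin gene Anxa1 (79.5 and 38.6), which was at least 1.92-fold lower and so not past 2-fold against the floor. Other lists had 0 genes past 2-fold in either direction: ATF4 stress response (29 measured, median -0.01), unfolded protein response (17, 0.10), PRC2 (12, -0.12), two-cell-like genes (17, -0.01), interferon and immune response (20, 0.06), replication-dependent histones (8, -0.18) and housekeeping genes (15, -0.05). Against 2.7% of all genes compared, 0 in lists of these sizes is not a result about their members.

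**Figure D4:**
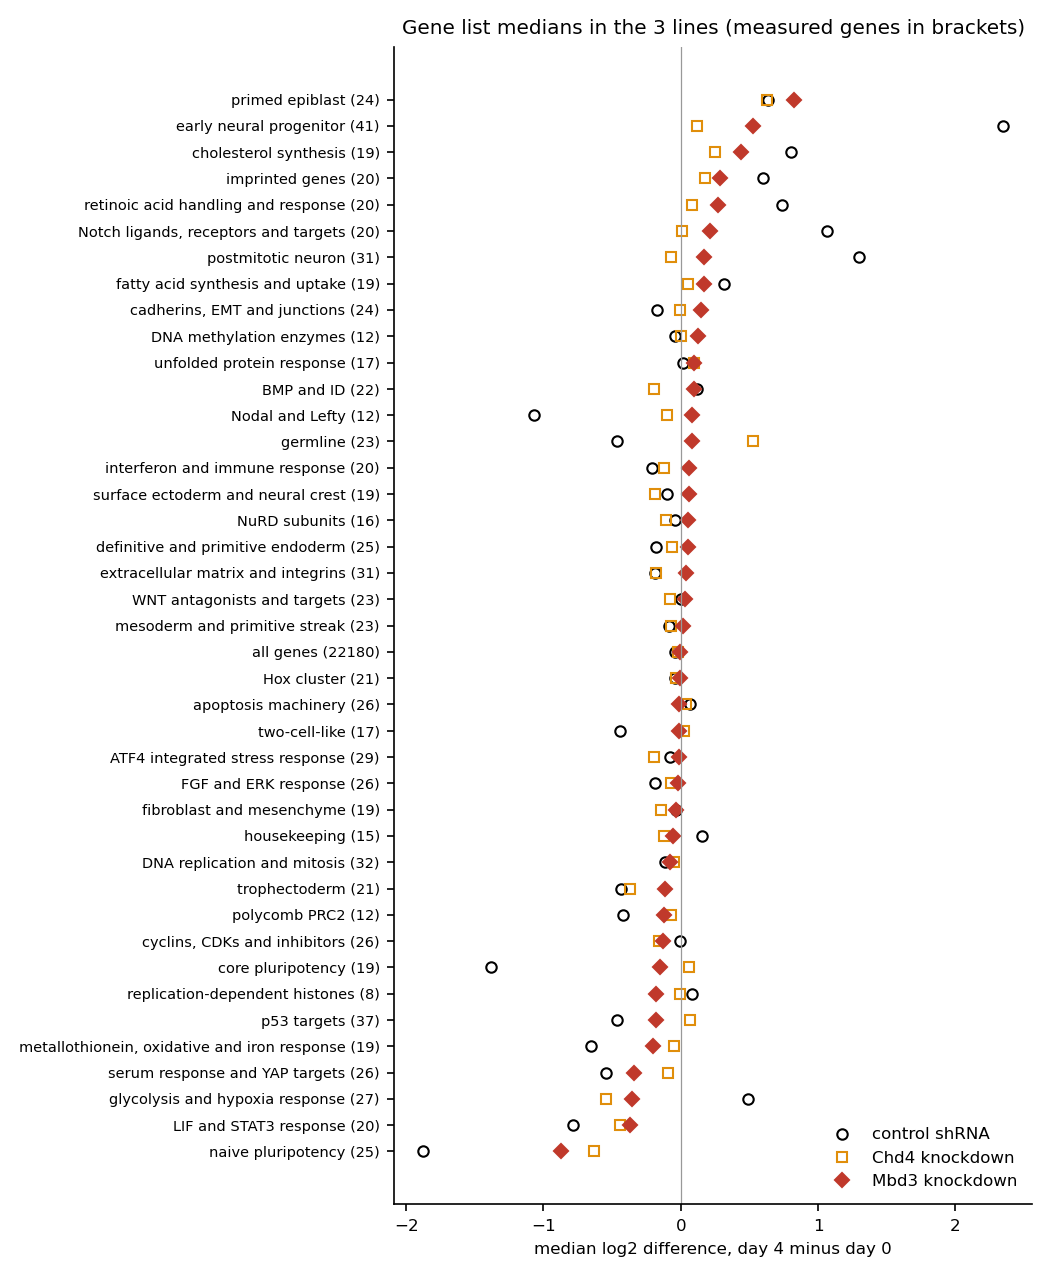
Median log2 difference, day 4 minus day 0, of each gene list over its measured members in control (open circles), Chd4-knockdown (open squares) and Mbd3-knockdown cells (filled diamonds), with the number of measured genes in brackets. The lists run from naive pluripotency at -0.87 to primed epiblast at 0.83 in the Mbd3 knockdown, and the control value is farther from 0 for the neural, naive and core pluripotency lists.

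Markers of other cell types that the aggregates could hold were checked by the same rule. Mesoderm and primitive streak genes had 0 of 23 past 2-fold (median 0.02), and their summed intensity was 1033 at day 0 and 1008 at day 4. Endoderm genes had 1 of 25 higher, the adaptor gene Dab2 (98.6 and 219), and 0 lower (median 0.05; summed intensity 2212 and 2112). Trophectoderm genes had 0 of 21 past 2-fold (median -0.12; summed 2346 and 2666). Surface ectoderm and neural crest genes had 2 of 19 higher, Pax3 (35.9 and 82.4) and Sox9 (37.9 and 90.4), which are also neural genes, and 1 lower, the epidermal factor Grhl3 (504 and 210), with a median of 0.06 and a summed intensity of 3075 and 2692. Fibroblast and mesenchyme genes had 1 of 19 higher, the protease gene Mmp2 (69.8 and 161), and 1 lower, Vim (median -0.03; summed 4912 and 4360). The endoderm factors Gata6 (30.5 and 29.9) and Sox17 (37.1 and 40.2) and the trophectoderm factor Cdx2 (42.2 and 38.9) stood near or under the floor on both days; these 3 were named after their values were seen.

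Other genes at the extremes belong to none of the groups above. On the higher side they were the nuclear factor gene Aff3 (72.7 at day 0 and 344 at day 4), Hsd11b2, which inactivates glucocorticoids (92.6 and 408), the carbonic anhydrase gene Car4 (62.2 and 271) and the phosphatase gene Ptpn13 (81.7 and 351). All 4 were higher at day 4 in the control line too, where they read 269, 321, 199 and 521 at day 4. On the lower side were the clathrin light chain gene Cltb (305 and 65.1), the histone gene H2ac1 (316 and 68.2), whose copies are alike enough to make its value uncertain, and the Toll-pathway inhibitor gene Irak3 (324 and 78.2). Next came Pcolce, which aids collagen processing (289 and 70.5), the transglutaminase gene Tgm1 (248 and 64.7), the zinc transporter gene Slc30a2 (396 and 101) and the transporter gene Slc4a11 (696 and 167). All of these were lower at day 4 in the control line as well; Slc4a11 was the exception in the Chd4 line, at 453 and 434.

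Set beside the other lines, with which this comparison shares no array, most genes past 2-fold in the Mbd3 knockdown differed the same way. Of the 213 higher genes, 185 (86.9%) were higher at day 4 in the control line, against 49.0% of all genes compared, and 138 (64.8%) were at least 2-fold higher there, against 7.55%. In the Chd4 line 203 (95.3%) were higher, against 48.5%, and 83 (39.0%) by at least 2-fold, against 1.51%. Of the 147 lower genes, 140 (95.2%) were lower in the control line, against 51.0%, and 95 (64.6%) by at least 2-fold, against 4.85%; in the Chd4 line these were 135 (91.8%, against 51.5%) and 52 (35.4%, against 1.13%). The median of the higher genes was 1.29 in the Mbd3 knockdown, 1.67 in the control line and 0.87 in the Chd4 line, and that of the lower genes -1.26, -1.44 and -0.73. The choice of genes in 1 line bears on these medians: the 228 genes chosen as higher in the Chd4 line had a median of 1.28 there and 0.79 in the Mbd3 knockdown. The 1125 chosen as higher in the control line had 1.45 there and 0.39 in the Mbd3 knockdown, where 138 of them were past 2-fold.

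By where else they passed 2-fold, the 213 higher genes split into 45 in all 3 lines, 93 in the Mbd3 and control lines, 38 in both knockdowns but not control, and 37 in the Mbd3 line alone. The 38 had a median of 1.47 in the Mbd3 line and 1.51 in the Chd4 line, against 0.07 in the control line; Dazl, Sohlh2, Stra8, Dnmt3a, Dnmt3b, Pou3f1, Wnt8a and Pim2 were among them. The median of the 37 was 1.18 in the Mbd3 line, 0.55 in the Chd4 line and 0.39 in the control line, so in the other lines most were on the higher side but under the threshold; Igf2, Fgf18, Fgf5, Zic2, Crmp1 and Xist were among these. The 147 lower genes split into 35 in all 3 lines, 60 in the Mbd3 and control lines, 17 in both knockdowns and 35 in the Mbd3 line alone. Txnip, Arrdc4, Egln3, Bhlhe40, Ndufa4l2 and Jam2 were among the 17, whose median was -1.25 in the Mbd3 line, -1.20 in the Chd4 line and -0.37 in the control line. The receptor gene Adgrg6 (234 and 70.0) and the receptor tyrosine kinase gene Kit (561 and 242) were among the 35, whose median was -1.18, -0.41 and -0.54 in the same order.

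The 10 higher genes with the largest excess over the control difference were Dazl, Zfp981, Cd80, Bnc2, Mmp25, Lrrc15, Uba1y, Wt1, Dnmt3b and Cyp2b23. Each was lower at day 4 in the control line and at least 2-fold higher in the Mbd3 knockdown. Zfp981, a zinc finger gene of a cluster of similar copies whose probes may not separate them, read 686 at day 0 and 2018 at day 4 in the Mbd3 knockdown and 929 and 272 in the control line. Bnc2, a zinc finger protein, read 224 and 486, against 234 and 78.1. Wt1, a zinc finger factor of kidney and gonad, read 53.8 and 164, against 78.2 and 61.1. The protease gene Mmp25 read 70.4 and 239, the leucine-rich membrane protein gene Lrrc15 read 140 and 324, Uba1y read 53.2 and 144, and Cyp2b23, a cytochrome P450 gene with close relatives, read 54.5 and 166. Of these 10, all but Lrrc15 were on the higher side in the Chd4 line too, where Lrrc15 read 184 and 181. The 10 lower genes with the largest excess were Egln3, Ndufa4l2, Txnip, Vim, Bhlhe40, the snoRNA gene Snora15 (261 and 124), the amino acid transporter gene Slc38a3 (159 and 67.8), Arrdc4, Pros1, which encodes the anticoagulant protein S (190 and 57.6), and the carbonic anhydrase gene Car13 (359 and 154). All 10 were lower at day 4 in the Chd4 line as well. With 1 array a group, none of these differences between lines was tested.

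**Figure D5:**
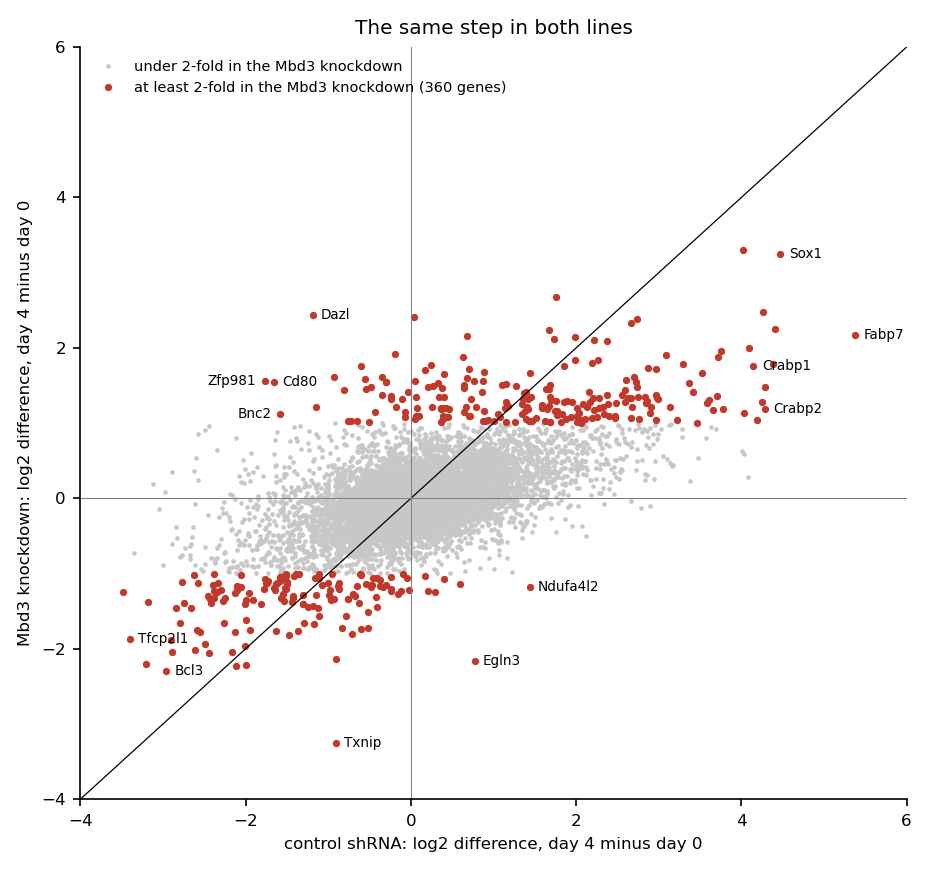
Log2 difference, day 4 minus day 0, in Mbd3-knockdown cells (vertical axis) against control cells (horizontal axis), 1 point per gene compared in the Mbd3 knockdown; red, the 360 genes at least 2-fold different in the Mbd3 knockdown; the diagonal marks equal differences. Fabp7 and Crabp2 lie far below the diagonal on the right, while Dazl, Zfp981, Cd80 and Bnc2 lie in the upper left and Egln3 and Ndufa4l2 in the lower right, where the lines differ in direction.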

How the data were processed

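Total RNA of the 6 samples was labelled with biotin and hybridised to Affymetrix Mouse Gene 2.0 ST arrays, per the labels' protocols and the series design text. The deposited intensities were made by the authors with RMA, per the submitters' processing notes, in GeneSpring GX 12.6.1, per the design text; scanner files were not used here, and background constant and summarisation settings are not given in the sources used here. The deposited table holds linear values from 17 upwards with array medians close together, and log2 was taken here.

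Genes were named through the platform annotation: 23521 probe sets had 1 symbol, 1814 several and 9016 none, and 23328 of the first had a gene ID in the RefSeq table. Where a gene had several probe sets, the one with the brightest average was used. Genes counted as past 2-fold had to be compared (brighter value at or above its array's median). List medians run over all measured members, whereas the design as first written took the members compared; the latter are given in the closing section where they differ most. With 1 array per group no test was run. 1 array a group limits the precision of every value.

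Named genes were the 15 highest and 15 lowest with dim values at the floor, list members past 2-fold or the 2 largest of a list, the 10 with the largest excess over control each way, and Mbd3 and Chd4; others are marked in the text. The comparison and the 40 gene lists were chosen with earlier results of these data known; of 888 symbols 808 matched exactly, 3 by synonym and 77 not. Alternatives were 16 subtracted, median centring, quantile normalization, a floor, other filters on dim genes and other uses of probe sets. The script was tested on simulated data. Python 3.11.15, numpy 2.4.6, pandas 2.3.3 and matplotlib 3.10.9 were used.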

Additional observations from a re-analysis of the deposited data

Results flagged for a closer look

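Among the genes named above, 6 differed at least 2-fold between the days in opposite directions in the Mbd3-knockdown and control lines. The gap between the 2 log2 differences, Mbd3 knockdown minus control, was 3.63 for Dazl, 3.33 for Zfp981, 3.20 for Cd80, 2.70 for Bnc2, 2.36 for Lrrc15 and -2.62 for Ndufa4l2. With 1 array per group the difference between the lines was not tested; the size of each gap follows in part from the choice of genes at least 2-fold different both ways. In Chd4-knockdown cells the log2 differences were 3.06 for Dazl, 0.90 for Zfp981, 0.33 for Cd80, 0.63 for Bnc2, -0.02 for Lrrc15 and -1.71 for Ndufa4l2. Against the floor, the day 4 value of Cd80 in control cells (34.5) and that of Ndufa4l2 in the Mbd3 knockdown (40.8) are bounds only.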

How the results depend on the processing

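No paired analysis was possible because each group was 1 array and the labels carry no replicate numbers; for the same reason no array could be left out. No named gene recomputed changed direction under the alternatives run. List medians within 0.1 of 0 did: over the members compared alone, those of BMP and ID genes, mesoderm genes and surface ectoderm genes were -0.03, -0.11 and -0.07. Subtracting 16 from each intensity raised the counts past 2-fold from 213 to 381 higher and from 147 to 259 lower, and the postmitotic neuron median from 0.17 to 0.30. With dim values set to the floor, that median was 0 and the LIF and STAT3 median -0.24. Over the members compared alone, medians were 0.93 for early neural progenitor, 0.53 for retinoic acid, 0.19 for germline, 0.13 for interferon, 0.11 for postmitotic neuron, 0.002 for endoderm, -0.34 for metallothionein and oxidative and -0.36 for histone genes. Other filters on dim genes, counting every probe set, median centring and quantile normalization moved neither count past 2-fold by over 1.5 times. Of the recomputed log2 differences of named genes 170 moved by less than the probe-set SD and 24 by more, 22 of the latter with 16 subtracted; Sox4 was 1.79 as the mean of its probe sets. Low signals limit the fold of genes near the floor.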
